A study of Mus musculus with 10 samples.

Results

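Eomes, Krt8 and Krt18 are genes of the mouse trophectoderm, the outer layer of the blastocyst that gives rise to the placenta. They were chosen by symbol, and make up 3 of the 8694 gene symbols listed in any of the deposited tables. RNA sequencing covered 10 libraries of E14 mouse embryonic stem (ES) cells on gelatin, 2 for each of 5 groups. CRISPR/Cas9 placed the mutation in exon 2 of Mbd3 for the Mbd3ab KO line (Mbd3ab -/-), in intron 2 for Mbd3c KO (Mbd3c -/-), in exon 5 for Mbd3abc KO (Mbd3abc -/-) and again in exon 2 for Mbd3cΔN-ab KO (Mbd3cdeltaN; ab-/-). The E14 wild type (WT) has no engineered mutation, and the same 2 WT libraries served every comparison. Mbd3 is a subunit of NuRD, a complex that joins nucleosome remodelling to histone deacetylation, and by its title the series asks how an ES cell form of NuRD works through Wdr5. The labels call the libraries of a group biological replicates. The sources used here do not say whether a mutant line is 1 clone, so p-values measure the spread between these libraries only.

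Eomes (eomesodermin) is a T-box transcription factor needed for trophoblast development after the blastocyst forms and, later, for mesoderm and endoderm formation at gastrulation. Krt8 is a type II and Krt18 a type I keratin. The proteins pair to form the intermediate filaments of simple epithelia, and they are the first keratins made in the mouse embryo, in trophectoderm. ES cells come from the inner cell mass, which is set apart from trophectoderm at the blastocyst stage, and naive ES cells rarely form trophoblast.

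Eomes lies on chromosome 9 from 118478189 to 118486132 on the plus strand (mm10), and its counted transcript spans 3707 bases. Krt8 lies on chromosome 15 from 101996711 to 102004342 on the minus strand, with a transcript of 1794 bases. Krt18 lies on chromosome 15 from 102028216 to 102032026 on the plus strand, with a transcript of 1391 bases. The keratins are thus neighbours transcribed away from each other, with their start sites 23.9 kb apart. The 250 bases before each start site are shown because all 3 genes were called together in 2 mutants (RefSeq, GRCm38.p6, the same assembly as mm10; 3 of 3 genes matched). Capitals mark the T-box core AGGTG, which reads CACCT on the strand printed.
Eomes, chr9:118477939-118478188, plus strand: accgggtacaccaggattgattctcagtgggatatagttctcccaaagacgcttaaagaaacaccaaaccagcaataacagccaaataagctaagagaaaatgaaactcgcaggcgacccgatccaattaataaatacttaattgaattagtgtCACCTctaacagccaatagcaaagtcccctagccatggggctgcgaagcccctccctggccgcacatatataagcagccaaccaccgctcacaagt
Krt8, chr15:102004343-102004592, minus strand: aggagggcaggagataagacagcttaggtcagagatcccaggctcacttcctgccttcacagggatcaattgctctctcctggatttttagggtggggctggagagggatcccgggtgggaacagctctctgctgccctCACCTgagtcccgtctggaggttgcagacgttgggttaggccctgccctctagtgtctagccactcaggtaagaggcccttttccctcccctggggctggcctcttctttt
Krt18, chr15:102027966-102028215, plus strand: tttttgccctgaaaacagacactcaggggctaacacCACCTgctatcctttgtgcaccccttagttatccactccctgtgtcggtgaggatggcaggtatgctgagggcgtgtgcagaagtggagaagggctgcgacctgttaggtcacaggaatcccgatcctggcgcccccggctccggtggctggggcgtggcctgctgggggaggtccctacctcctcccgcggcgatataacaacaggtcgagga
Each window held 1 core, first base at -96 in Eomes, -111 in Krt8 and -214 in Krt18, counted from the start site. The core was present in 46.0% of 32851 mouse promoter windows of that length, searched on both strands, so its presence in 3 windows is a description only. The longer T-box motif TCACACCT, which overlaps the core, was found in none of the 3 windows and in 1.12% of all windows. An ETS motif (CAGGAA, in 25.7% of windows) stood in the Krt8 and Krt18 windows, a GATA motif (AGATAA, 9.99%) in that of Krt8 and a TFAP2 motif (GCCNNNGGC, 13.7%) in that of Krt18. The letters TATAAA (12.4%), GGGCGG (Sp/Klf, 32.7%), TGANTCA (AP-1, 6.75%) and GGAATG (TEAD, 12.6%) were in none of the 3. The windows held 8 CpG dinucleotides in Eomes, 3 in Krt8 and 12 in Krt18.

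Each mutant was compared with WT in a table of its own, which lists almost only genes the authors called with DESeq2 at an adjusted p under 0.05. A gene that a table does not list has no value in that comparison. Levels are reads recovered from the deposited columns and divided by size factors (normalized reads), comparable within a table only. Total reads ranged from 0.485 (second Mbd3c KO library) to 1.59 (second WT library) times those of the first WT library. The absolute totals are not known here, so the precision of a level rests on its recovered reads. Mbd3 itself had 506 and 638 normalized reads in Mbd3ab KO against 1523 and 1468 in WT, 108 and 158 in Mbd3abc KO against 1775 and 1689 in WT, and 299.6 and 292 in Mbd3cΔN-ab KO against 1685 and 1614 in WT. Mbd3 was not listed for Mbd3c KO, so its level does not check that label.

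Of the 12 pairs of a gene and a table, 9 were called, and in all 9 the gene was higher in the mutant. All 3 genes were called in Mbd3ab KO, where the authors called 3.35% of 13201 genes tested (2.05% higher). All 3 were also called in Mbd3abc KO, with a background of 52.1% of 15622 genes (27.1% higher). Eomes and Krt8 were called in Mbd3cΔN-ab KO, with a background of 41.5% of 14429 genes (21.1% higher). Krt18 alone was called in Mbd3c KO, the line with the fewest calls, at 0.353% of 10761 genes (0.316% higher). That line also had the library with the fewest total reads and the fewest genes tested. With backgrounds of 52.1% in Mbd3abc KO and 41.5% in Mbd3cΔN-ab KO, a call there says little about a gene by itself. All comparisons share the WT libraries. Because the tables keep called genes only, the mutant and WT libraries had to stand apart or nearly so in each of the 9 pairs.

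Eomes was higher in 3 mutants than in WT. It had 156 and 151 normalized reads in the Mbd3ab KO libraries, against 67.4 and 53.1 in the WT libraries. Mbd3abc KO gave 491 and 413 normalized reads of Eomes, against 78.5 and 61.2 in WT. In Mbd3cΔN-ab KO it had 237 and 213, against 74.5 and 58.5 in WT. The libraries of each mutant lay close together, at most 1.19-fold apart, and every mutant library was above both WT libraries. The WT values come from 61 and 75 recovered reads. Means were 153 ± 3.82 normalized reads in Mbd3ab KO and 60.3 ± 10.05 in WT, a 2.54-fold rise (SD, n = 2 each). The authors' deposited table gives a log2 fold change of 1.18 ± 0.29 (SE) with DESeq2's adjusted p = 0.00317 for that rise. The mean of 452 ± 55.1 in Mbd3abc KO was 6.47-fold that of 69.8 ± 12.3 in WT (SD, n = 2 each), with a log2 fold change of 2.63 ± 0.24 and adjusted p = 9.28e-26 by DESeq2 in the authors' deposited table. In Mbd3cΔN-ab KO the mean was 225 ± 17.3 against 66.5 ± 11.4 in WT, 3.38-fold higher (SD, n = 2 each; deposited DESeq2 log2 fold change 1.67 ± 0.24, adjusted p = 1.57e-10). In bulk RNA, more cells that express a gene and more RNA per cell cannot be told apart.

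**Figure D1:**
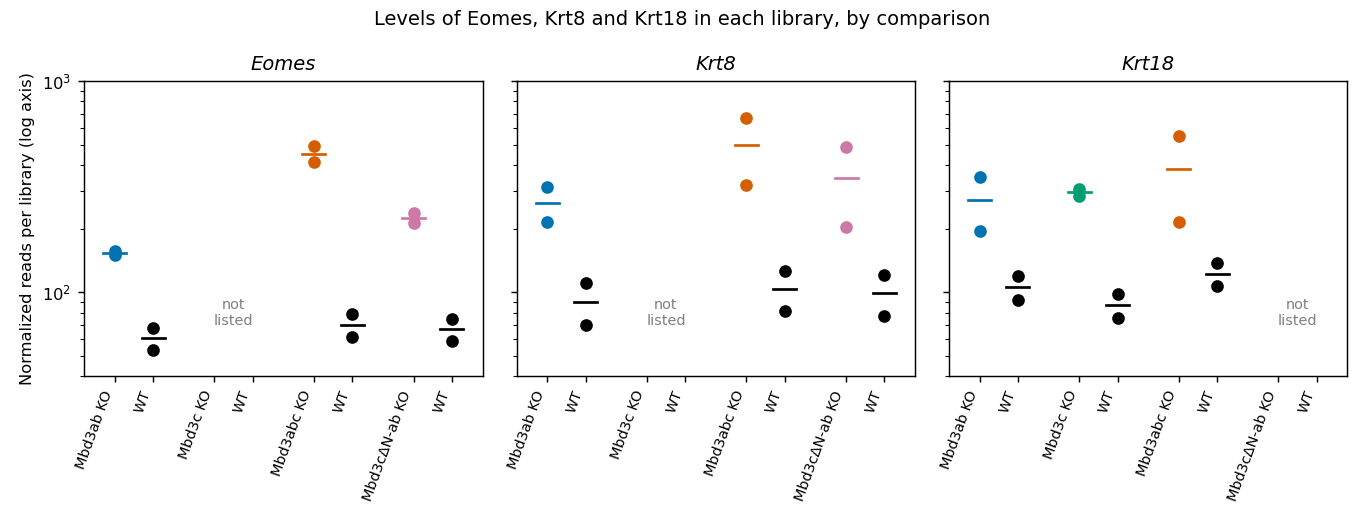
Levels of the 3 genes in every library of each comparison, on a log axis in normalized reads (dots, libraries; lines, means of 2). Each mutant stands to the left of WT as normalized in its own table, and all mutant dots lie above the WT dots of the same table, with Eomes reaching 491 and 413 in Mbd3abc KO.

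Krt8 also rose in the same 3 mutants, but its mutant libraries differed more. In Mbd3ab KO it had 314 and 214 normalized reads, against 69.6 and 110 in WT. The Mbd3abc KO libraries had 669 and 322, against 81.1 and 126 in WT. Mbd3cΔN-ab KO libraries had 488 and 203, against 77.0 and 121 in WT. The first library of each mutant was the higher by 1.47-, 2.07- and 2.40-fold, in that order of mutants, and the first WT library was the lower. The groups did not overlap. Krt8 rose 2.94-fold in Mbd3ab KO, with means of 264 ± 71.1 in the mutant and 89.7 ± 28.5 in WT (SD, n = 2 each; authors' deposited DESeq2 log2 fold change 1.30 ± 0.31, adjusted p = 0.00317). Its 4.78-fold rise in Mbd3abc KO stood on means of 496 ± 245 in the mutant and 104 ± 32.0 in WT (SD, n = 2 each; deposited DESeq2 log2 fold change 2.01 ± 0.43, adjusted p = 1.17e-05). The 3.50-fold rise in Mbd3cΔN-ab KO stood on 346 ± 202 in the mutant and 98.9 ± 31.0 in WT (SD, n = 2 each; deposited DESeq2 log2 fold change 1.46 ± 0.42, adjusted p = 0.00213). Without the first Mbd3cΔN-ab KO library a DESeq2 refit gave a log2 fold change of 0.90 and adjusted p = 0.0950, against 2.12 and 2.22e-08 without the second. Without the first WT library it gave 1.32 and adjusted p = 0.0509. A pseudogene, Krt8-ps, is annotated by RefSeq, and the sources used here do not say how reads that match several places were counted.

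Krt18 rose in Mbd3ab KO, Mbd3c KO and Mbd3abc KO. It had 353 and 194 normalized reads in Mbd3ab KO, against 91.7 and 120 in WT. In Mbd3c KO it had 307 and 286, against 75.1 and 98.1 in WT. Its Mbd3abc KO libraries had 548 and 216, against 107 and 138 in WT. The Mbd3c KO libraries were alike, while the first library was 1.82-fold above the second in Mbd3ab KO and 2.54-fold above it in Mbd3abc KO. The 2.59-fold rise in Mbd3ab KO had means of 273 ± 112 in the mutant and 106 ± 19.9 in WT (SD, n = 2 each; authors' deposited DESeq2 log2 fold change 1.13 ± 0.32, adjusted p = 0.0214). For Mbd3c KO the means were 297 ± 14.8 in the mutant and 86.6 ± 16.2 in WT, 3.42-fold apart (SD, n = 2 each; deposited DESeq2 log2 fold change 1.42 ± 0.36, adjusted p = 0.0299). The 3.12-fold rise in Mbd3abc KO had means of 382 ± 235 in the mutant and 122 ± 21.9 in WT (SD, n = 2 each; deposited DESeq2 log2 fold change 1.43 ± 0.46, adjusted p = 0.00504). Without the first Mbd3abc KO library the DESeq2 refit gave a log2 fold change of 0.76 and adjusted p = 0.168, against 2.07 and 2.80e-08 without the second. Krt18 was 1 of 34 genes higher in Mbd3c KO. Eomes and Krt8 have no value there, and Krt18 has none in Mbd3cΔN-ab KO, which does not show that they were unchanged.

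**Figure D2:**
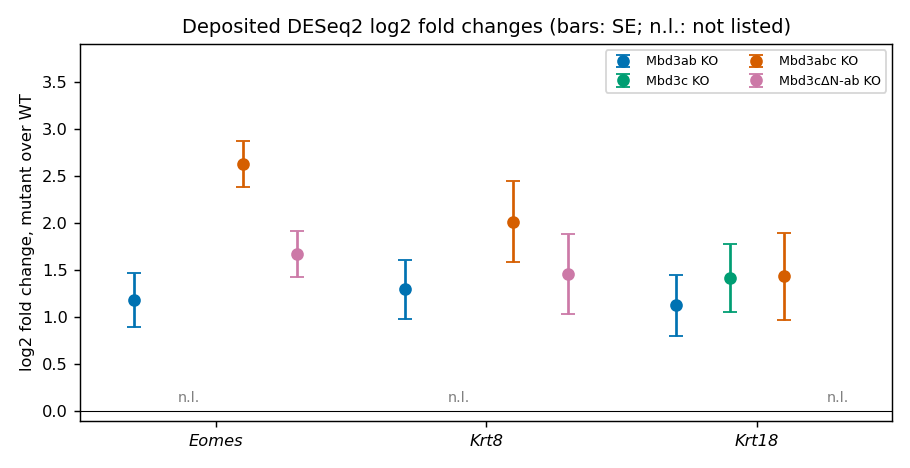
Log2 fold change of each gene, mutant over WT, as the authors deposited it from DESeq2 (points; bars are SE; colours are mutants; n.l. marks a gene not listed). Eomes in Mbd3abc KO stands highest at 2.63, and the others lie between 1.13 and 2.01.

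The 3 calls in Mbd3ab KO and the Krt18 call in Mbd3c KO were lost in most refits. Refits used the recovered reads of the listed genes, but their p-values were adjusted over all genes the authors tested, 13201 in Mbd3ab KO and 10761 in Mbd3c KO. So adjusted, edgeR's quasi-likelihood test gave adjusted p = 0.106 for Eomes, 0.128 for Krt8 and 0.191 for Krt18 in Mbd3ab KO. It gave adjusted p = 0.361 for Krt18 in Mbd3c KO. In those fits edgeR called 0 of 443 listed genes in Mbd3ab KO and 0 of 38 in Mbd3c KO, although all 443 and all 38 had an unadjusted p under 0.05. These losses are thus not particular to the members. The DESeq2 refit of the same reads called 239 of 443 and 26 of 38 listed genes. It gave adjusted p = 0.0742 for Eomes in Mbd3ab KO and 0.222 for Krt18 in Mbd3c KO. Thus 0 of 7 refits on all libraries kept either call. The edgeR and limma fits among them called 0 to 32 of the 443 genes and 0 of the 38. Their part in this count says little about the members. In every leave-one-out refit of Eomes in Mbd3ab KO, DESeq2 lost the call, with log2 fold changes of 1.02 to 1.30. For Krt8 and Krt18 in that mutant the call held only without the second Mbd3ab KO library (log2 fold changes 1.68 and 1.64). Without the first, the log2 fold changes were 1.08 and 0.77. Krt18 in Mbd3c KO lost its call without either WT library (log2 fold changes 1.40 and 1.78). A refit without a WT library leaves 1 in that group, so a call lost there is not particular to the members. Eomes in Mbd3abc KO and in Mbd3cΔN-ab KO and Krt8 in Mbd3abc KO kept their calls in all settings tried.

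The mutants were then set against each other on genes listed in both tables, with edgeR's quasi-likelihood test on recovered reads and the shared WT reads as the link, in 7 contrasts. Eomes was higher in Mbd3abc KO than in Mbd3ab KO by 1.35 on the log2 scale (adjusted p = 0.0105, where 30.5% of 370 shared genes were called, 10.3% higher). It was also higher in Mbd3abc KO than in Mbd3cΔN-ab KO, by 0.94 (adjusted p = 0.0402, where 5.49% of 5413 shared genes were called, 3.23% higher). Both Mbd3abc KO libraries exceeded the others relative to WT: their Eomes levels were 7.03 and 5.91 times the WT mean, against 3.56 and 3.20 times in Mbd3cΔN-ab KO and 2.59 and 2.50 times in Mbd3ab KO. The contrast with Mbd3cΔN-ab KO was the less firm, since limma gave adjusted p = 0.0818 and edgeR on the mutant libraries alone 0.103. These 2 fits called 48 and 8 of the 5413 shared genes, against 297 in the main fit. A call lost there is thus not particular to Eomes. The Eomes contrast was past the threshold in 1 of 6 leave-one-out fits, the one without the second Mbd3abc KO library. Each of these fits leaves 1 library in a group, and the difference ranged from 0.81 to 1.06. The neighbouring Mbd3cΔN-ab KO and Mbd3ab KO did not differ beyond their spread in Eomes (0.41, adjusted p = 0.565, DESeq2 95% interval -0.29 to 1.11; 1.13% of 353 shared genes called, 0.567% higher).

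For Krt8 the order of folds was the same, Mbd3abc KO above Mbd3cΔN-ab KO above Mbd3ab KO, but no neighbours differed beyond their spread. The edgeR difference was 0.46 between Mbd3abc KO and Mbd3cΔN-ab KO (adjusted p = 0.502; DESeq2 95% interval -0.45 to 1.35). Between Mbd3abc KO and Mbd3ab KO it was 0.69 (adjusted p = 0.244; interval -0.17 to 1.55), and between Mbd3cΔN-ab KO and Mbd3ab KO 0.24 (adjusted p = 0.818; interval -0.72 to 1.20). Without the second Mbd3abc KO library the difference from Mbd3ab KO was 1.12 (adjusted p = 0.0483), and without the first it was 0.07 (adjusted p = 0.898). The difference between Mbd3abc KO and Mbd3cΔN-ab KO turned to -0.16 without the first Mbd3abc KO library and to -0.05 without the second Mbd3cΔN-ab KO library. That between Mbd3cΔN-ab KO and Mbd3ab KO turned to -0.53 without the first Mbd3cΔN-ab KO library and to -0.0081 without the second Mbd3ab KO library. Krt18 differed by 0.26 between Mbd3abc KO and Mbd3ab KO (adjusted p = 0.722; interval -0.69 to 1.22), and turned to -0.56 without the first Mbd3abc KO library and to -0.10 without the second Mbd3ab KO library. These intervals leave room for differences of over 2-fold as well as none. Krt18 in Mbd3c KO was not set against the other mutants, as that table lists 38 genes.

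Per transcript length the keratins were above Eomes in Mbd3abc KO and in WT. The Mbd3abc KO means were 122 normalized reads per kb for Eomes, 276 for Krt8 and 274 for Krt18, and the WT means in that table were 18.8, 57.8 and 88.0. The keratin partners were thus at like levels in Mbd3abc KO and Krt18 was the higher in WT. Taken library by library, the Krt8 to Krt18 ratio per length was 0.946 and 1.16 in Mbd3abc KO, against 0.589 and 0.711 in WT. In Mbd3ab KO it was 0.691 and 0.854, against the same WT values, so there 1 mutant library lay within the WT range. The ratio has no test here. Both keratins were highest in the first library of Mbd3ab KO and of Mbd3abc KO, and Eomes differed little between the same libraries.

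**Figure D3:**
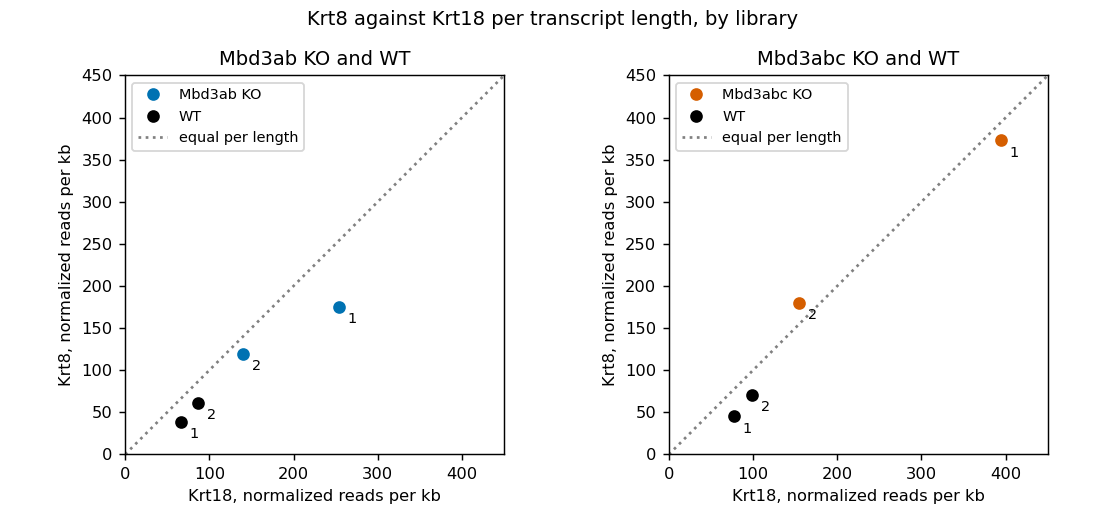
Krt8 against Krt18 in normalized reads per kb of transcript in Mbd3ab KO with WT (left) and Mbd3abc KO with WT (right). Each dot is a library, numbered by column order, and the dotted line marks equal levels. The first Mbd3abc KO library holds 373 and 394 per kb for Krt8 and Krt18, the second 180 and 155.

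Other genes of the trophectoderm and its trophoblast descendants did not move in 1 direction with these 3. Of 38 genes on the list, which includes the 3, 23 were called in at least 1 table and 15 in none. In Mbd3ab KO 5 were higher and 4 lower, in Mbd3c KO 1 higher, in Mbd3abc KO 7 higher and 9 lower, and in Mbd3cΔN-ab KO 8 higher and 11 lower. The median log2 fold change of the called members was 0.56, 1.42, -0.82 and -0.66 in that order, against 0.88, 1.69, 0.46 and 0.37 for all called genes. Of the list 23.7%, 2.63%, 42.1% and 19 of 38 were called in that order, against 3.35%, 0.353%, 52.1% and 41.5% of all genes tested. Here and below, a list share counts every gene on the list, tested or not, while the background counts tested genes only. How many list genes were tested is not known here, so a low share does not show that a list changed less. The trophectoderm regulators Cdx2, Gata3, Elf5 and Tfap2a were called in no table and have no value here. Adjusted p-values of list genes, mutant against WT, are DESeq2 values from the authors’ deposited table.

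Among the rising members, Krt7, a simple epithelial type II keratin, had 53.2 and 31.5 normalized reads in Mbd3abc KO, against 7.72 and 8.97 in WT (5.07-fold, deposited DESeq2 adjusted p = 0.000381). The placental homeobox gene Esx1 had 124 and 46.7 there, against 14.2 and 8.16 in WT (7.64-fold, adjusted p = 0.000127). Tead4, the TEAD factor needed for trophectoderm formation, rose 2.18-fold in Mbd3ab KO, 1.44-fold in Mbd3abc KO and 1.66-fold in Mbd3cΔN-ab KO. Peg10, an imprinted gene needed in the placenta, rose 3.35-fold in Mbd3abc KO. Others fell. Gata2, a trophoblast GATA factor, had 7.73 and 1.91 normalized reads in Mbd3abc KO, against 59.2 and 40.8 in WT (10.4-fold lower, adjusted p = 1.27e-05). Tfap2c, an AP-2 factor of trophoblast and germ cells, was 3.97-fold lower in Mbd3cΔN-ab KO and 2.18-fold lower in Mbd3ab KO. The trophoblast factor Ascl2 was 5.64-fold lower in Mbd3abc KO, and the connexin gene Gjb5 was 4.31-fold lower there.

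**Figure D4:**
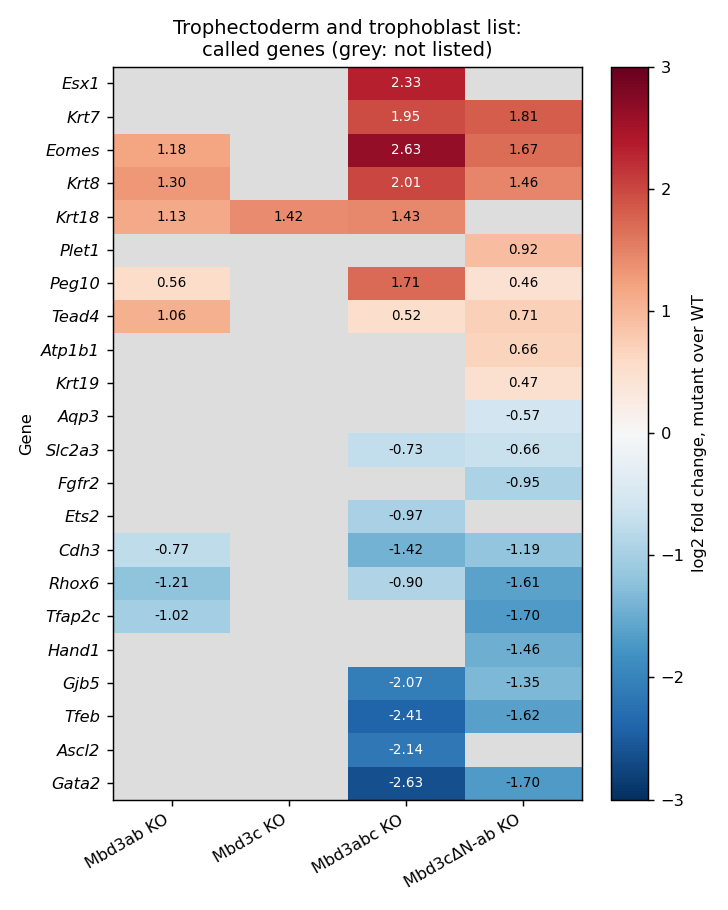
Deposited log2 fold changes, mutant over WT, of 22 of the 23 trophectoderm and trophoblast genes called in any comparison (rows, ordered by mean; red higher, blue lower, grey not listed). Eomes, Krt8 and Krt18 sit near the top with Esx1 and Krt7, and Gata2 is lowest at -2.63 in Mbd3abc KO.

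Within the T-box family, Eomes was 1 of few members with a value. Of 17 family genes 1 was called in Mbd3ab KO, 3 in Mbd3abc KO and 3 in Mbd3cΔN-ab KO, all higher. In Mbd3abc KO and in Mbd3cΔN-ab KO that is 17.6% of the family, tested or not, against 52.1% and 41.5% of all genes tested. The denominators differ, so these shares do not show that the family changed less. In Mbd3ab KO it is 5.88%, against 3.35%. The others were Tbx3, a T-box repressor also used by ES cells, which rose 2.77-fold in Mbd3abc KO and 2.02-fold in Mbd3cΔN-ab KO, and Mga, a large protein with a T-box and a Max-binding domain, which rose 2.18- and 1.70-fold in the same order.

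Among 50 keratin genes, 2 were higher and 2 lower in Mbd3ab KO, 4 higher and 2 lower in Mbd3abc KO, and 3 higher and 2 lower in Mbd3cΔN-ab KO. The share called was 8% in Mbd3ab KO and 12% in Mbd3abc KO, against 3.35% and 52.1% of all genes tested, with 5 of 50 in Mbd3cΔN-ab KO, against 41.5%. The 50 may include keratins that were not tested, so the low shares do not show that keratins changed less. The type I keratins Krt17 and Krt42 fell in all 3 of these mutants. Krt42 had 250 and 259 normalized reads in Mbd3abc KO, against 941 and 869 in WT (3.56-fold lower, adjusted p = 7.7e-35). Krt17 had 44.5 and 118 there, against 363 and 372 in WT (4.52-fold lower, adjusted p = 8.35e-05). Intermediate filament genes other than keratins were mostly lower: of 15, 2 fell in Mbd3ab KO, 8 fell and 1 rose in Mbd3abc KO, and 7 fell in Mbd3cΔN-ab KO. Their called shares in Mbd3abc KO and Mbd3cΔN-ab KO, 9 of 15 and 46.7%, were near the 52.1% and 41.5% of all genes tested. The share in Mbd3ab KO was 13.3%, against 3.35%. Vim, the vimentin of mesenchymal cells, had 246 and 136 in Mbd3abc KO, against 2047 and 1838 in WT (10.2-fold lower, adjusted p = 1.15e-21). Ina, a neuronal filament gene, was 5.62-fold lower in Mbd3abc KO and 5.43-fold lower in Mbd3cΔN-ab KO.

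Keratin filaments are held to the membrane by desmosomes and plakins, and of 18 genes on that list 3 were higher and 1 lower in Mbd3ab KO, 9 higher and 5 lower in Mbd3abc KO, and 5 higher and 3 lower in Mbd3cΔN-ab KO. These are 22.2%, 77.8% and 44.4% of the list, against 3.35%, 52.1% and 41.5% of all genes tested. Dsc2, a desmosomal cadherin, had 391 and 107 normalized reads in Mbd3abc KO, against 9.01 and 10.6 in WT (25.4-fold as a plain ratio, deposited DESeq2 log2 fold change 3.57, adjusted p = 5.03e-09). It had 337 and 56.7 in Mbd3cΔN-ab KO, against 8.55 and 10.1 in WT (21.1-fold as a plain ratio, deposited DESeq2 log2 fold change 2.53, adjusted p = 1.18e-05). As with Krt8, the first library of each mutant was the higher, by column order, which links no libraries between mutants. Ppl went the other way in Mbd3abc KO, at 637 and 754. Dsp, the desmoplakin that binds keratin filaments, rose 2.23-fold in Mbd3abc KO and 1.68-fold in Mbd3cΔN-ab KO. Pkp2, a plakophilin, fell in all 3 and was 4.18-fold lower in Mbd3abc KO, and Plec, the linker plectin, fell by 1.57 on the log2 scale there. Of 30 apical junction and polarity genes 3 were higher and 2 lower in Mbd3ab KO, 10 higher and 6 lower in Mbd3abc KO, and 9 higher and 5 lower in Mbd3cΔN-ab KO. The last 2 counts, 53.3% and 46.7% of the list, are near the 52.1% and 41.5% of all genes tested. The Mbd3ab KO count is 16.7% of the list, against 3.35%. The tight junction gene Marveld2 rose 3.34-fold in Mbd3ab KO, 7.09-fold in Mbd3abc KO and 3.42-fold in Mbd3cΔN-ab KO, while the epithelial splicing factor Esrp2 was 3.59-fold lower in Mbd3abc KO.

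Markers of ES cells and of other cell types moved as well. The ES factor Pou5f1 had 2816 and 4647 normalized reads in Mbd3abc KO, against 10868 and 11648 in WT (3.02-fold lower, adjusted p = 6.53e-07). It remained far above the 3 genes in each library of that table. Of 16 ES cell genes 4 were higher and 8 lower in Mbd3abc KO, 2 higher and 7 lower in Mbd3cΔN-ab KO, and 1 lower in Mbd3ab KO. Summed over the called members, ES cell genes stood at 47341 and 50664 in Mbd3abc KO, against 67560 and 68154 in WT. Of 20 primitive and visceral endoderm genes 3 were higher and 1 lower in Mbd3ab KO, 4 higher and 4 lower in Mbd3abc KO and 3 higher and 2 lower in Mbd3cΔN-ab KO. Their summed levels in Mbd3abc KO were 8798 and 6706, against 11461 and 10427 in WT.

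The basement membrane collagen Col4a1 had 2373 and 1276 normalized reads in Mbd3abc KO, against 109 and 93.8 in WT, and 2598 and 690 in Mbd3cΔN-ab KO, against 104 and 89.6 in WT. It too was higher in the first libraries, while Dab2 of the same list had 46.4 and 120 in Mbd3abc KO. The endoderm factors Gata4, Gata6 and Sox17 were called in no table. Of 20 primitive streak genes, with Eomes among them, 1 was higher and 1 lower in Mbd3ab KO, 3 higher and 2 lower in Mbd3abc KO and 2 higher and 1 lower in Mbd3cΔN-ab KO. Mixl1, a streak homeobox gene, had 15.5 and 31.5 in Mbd3abc KO, against 2.57 and 0 in WT, while Evx1, another, had 0 in both Mbd3abc KO libraries, against 5.15 and 5.71 in WT. The streak genes summed to 2864 and 2774 in Mbd3abc KO, against 2917 and 3041 in WT. Lefty2 (means of 2141 in Mbd3abc KO and 1592 in WT) and Lefty1 (202 and 1311) made up most of these sums. All sums of list genes here cover called genes only and follow their most abundant members. Of 13 fibroblast genes 1 was higher and 2 lower in Mbd3abc KO and 1 higher and 3 lower in Mbd3cΔN-ab KO, with summed levels of 809 and 902 in Mbd3abc KO, against 1278 and 1214 in WT. Called shares in Mbd3abc KO were 12 of 16 for ES cell, 8 of 20 for endoderm, 5 of 20 for streak and 3 of 13 for fibroblast genes, against 52.1% of all genes tested. In Mbd3cΔN-ab KO the shares were 56.25%, 25%, 15% and 30.8% in that order, against 41.5%. For Mbd3ab KO they were 6.25%, 20%, 10% and 0%, against 3.35%. These lists too may hold genes that were not tested. The part that other cell types have in the levels of Eomes, Krt8 and Krt18 was not tested.

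Across the 6 mutant libraries of Mbd3ab KO, Mbd3abc KO and Mbd3cΔN-ab KO, the genes nearest to Eomes among 299 called in the same tables were Ppl, Lpgat1, Xaf1, Heg1 and Anxa5. Likeness was the root mean square difference of the log2 ratio to the WT mean, and these libraries share WT. Ppl, the filament-binding periplakin, differed from Eomes by 0.18 and ranged from 2.54 to 6.81 times WT. Lpgat1, a lipid acyltransferase, differed by 0.27 and the apoptosis-related Xaf1 by 0.28. Heg1, a receptor at endothelial junctions, and the phospholipid-binding annexin Anxa5 both differed by 0.30. Krt8 came at rank 34 with 0.53. Nearest to Krt8 were P2rx7, an ATP-gated channel (0.18), Pm20d1, an N-acyl amino acid enzyme (0.21), Rec114, of meiotic recombination (0.23), Col17a1, a hemidesmosome collagen (0.30), and Kcnh3, a potassium channel (0.32), with Eomes at rank 45. Krt18 was called in Mbd3ab KO, Mbd3c KO and Mbd3abc KO, and over their 6 libraries it had a single candidate, the granzyme Gzmm, at a difference of 0.79.

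The direction of called genes varied with the GC content of the transcript. The members hold 53.9% GC in Eomes, 57.1% in Krt8 and 56.4% in Krt18. In Mbd3abc KO 22.1% of 402 called genes in the GC class of Eomes were higher, 13.2% of 402 in that of Krt8 and 18.4% of 403 in that of Krt18, against 52.0% of all called genes. In Mbd3cΔN-ab KO it was 19.2% of 297 for Eomes and 9.76% of 297 for Krt8, against 50.8% of all. The classes hold 1 of 20 equal parts of the called genes and include the members. In Mbd3ab KO 59.1% of 22 genes like Eomes, 68.2% of 22 like Krt8 and 77.3% of 22 like Krt18 were higher, against 61.2% of all. These shares describe the tables and carry no test, and the part of GC content in the members' changes was not tested.

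**Figure D5:**
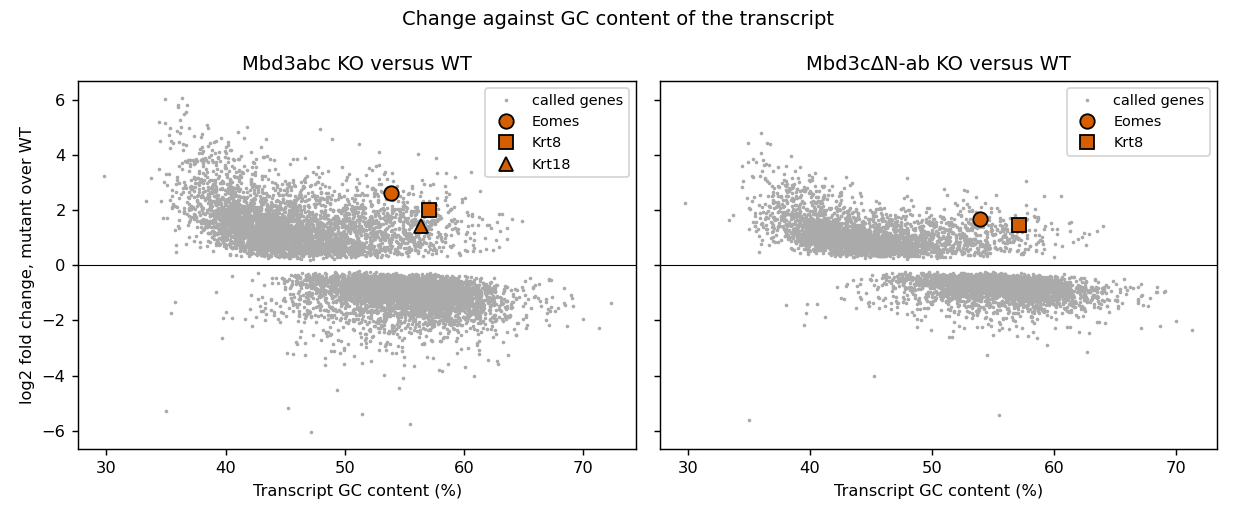
Deposited log2 fold change, mutant over WT, against transcript GC content in percent for called genes of Mbd3abc KO (left) and Mbd3cΔN-ab KO (right). Grey dots are called genes and large symbols the members. Eomes at 53.9% GC and Krt8 at 57.1% lie above 0, where most dots of like GC content lie below it.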

How the data were processed

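The data are total RNA libraries depleted of ribosomal RNA and made strand-specific, per the labels' protocols. TopHat2, HOMER and DESeq2 were the tools and mm10 the build, per the submitters' processing notes, which name no versions. There are 4 deposited tables, 1 for each mutant and each normalized separately. HOMER counts in exons, condensed to genes, underlie them per the file headers. The read columns hold a normalized signal as deposited, scaled to a common total within a table. From the authors' DESeq2 run come the deposited log2 fold change, its SE, the p-value and the adjusted p, which are the main results at a threshold of 0.05. A deposited score column, the Wald statistic, was not used.

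Values in the read columns were whole multiples of 1 step per library within 0.006 (100% in the 2 long tables and in Mbd3ab KO), so reads were recovered by division. The tables of Mbd3ab KO and Mbd3c KO are short and hold few low values. For them the WT step was set from the WT reads of the Mbd3abc KO table. WT reads were then equal for 370 of 370 and 19 of 19 shared transcripts. That match does not check the mutant columns, whose steps were fitted separately. In each Mbd3c KO library 97.4% of values were whole. Levels are reads divided by size factors recovered from the deposited mean level. Folds are plain ratios of mean levels, and the deposited log2 fold changes of the members are smaller than the log2 of these ratios. In list genes such as Dsc2 and Gata2 the deposited change is also the smaller in size, and the adjusted p belongs to it. The total of genes tested was recovered from p and adjusted p.

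Alternatives on the listed genes were edgeR 4.0.16 (quasi-likelihood), DESeq2 1.42.0 and limma 3.58.1 on log2(normalized reads + 1), with pseudocounts of 0.5 and 5, TMM factors, a mean of at least 10 reads, and each library left out (DESeq2 against WT, edgeR between mutants), in R 4.3.3. These fits take their spread from called genes and were tested on simulated data. Refits against WT were adjusted over the total of genes tested, although only listed genes were fitted. Contrasts of mutants were adjusted over genes listed in both tables, at a linked normalization through WT. Libraries are called the first and the second by column order, as the mutant columns carry none of the replicate numbers in the labels. Transcript GC content came from GENCODE M21. In the trophectoderm list, 1 called gene is counted but not reported here. The members and gene lists were chosen with earlier results of these data known. Genes named from a list were those with the largest deposited changes (up to 6 per direction and table) or named for their role on the list, and the nearest 5 patterns needed the same calling tables and a WT mean level of at least 10.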

Additional observations from a re-analysis of the deposited data

Results flagged for a closer look

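Eomes was higher in Mbd3abc KO than in Mbd3cΔN-ab KO relative to WT, by 0.939 on the log2 scale, and it stands here because edgeR's quasi-likelihood contrast of the mutants passed its threshold (adjusted p = 0.0402). The Eomes difference between Mbd3abc KO and Mbd3ab KO, 1.35 on the log2 scale, stands here for the same reason (adjusted p = 0.0105). Both mutant libraries show the direction in each contrast. No Krt8 or Krt18 contrast passed. A single left-out library is enough to lose the call of the smaller Eomes difference, which then ranged from 0.81 to 1.06. The larger one kept its call in all 6 leave-one-out fits (1.22 to 1.47).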

How the results depend on the processing

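Of 99 values recomputed for the 9 calls of a mutant against WT, 54 kept direction and call, 44 kept the direction and lost the call, and 1 reversed. The reversal was Krt18 in Mbd3c KO, -0.29 with TMM factors from the 38 listed genes, of which 34 rose, so these factors centre on the change itself. The other lost calls are given as log2 fold changes, and their cause was not tested. Eomes in Mbd3ab KO gave 1.36 with edgeR (also with a mean of at least 10 reads), 1.26 with DESeq2, 1.34, 1.35 and 1.29 with limma at pseudocounts of 1, 0.5 and 5, and 1.03 with TMM. Krt8 in Mbd3ab KO gave 1.55 with edgeR (also with 10 reads), 1.56, 1.56 and 1.51 with limma at the same pseudocounts, and 1.21 with TMM, and kept its call with DESeq2. Krt18 in Mbd3ab KO gave 1.37 with edgeR (also with 10 reads), 1.31, 1.32 and 1.28 with limma, and 1.03 with TMM, and kept its call with DESeq2. Krt18 in Mbd3c KO gave 1.77 with edgeR (also with 10 reads), 1.70 with DESeq2, and 1.78, 1.78 and 1.73 with limma. With limma at pseudocounts of 1 and 0.5, Krt8 in Mbd3cΔN-ab KO gave 1.70 and 1.70 and Krt18 in Mbd3abc KO 1.49 and 1.50. Leaving out each library gave, for Eomes, 1.02 to 1.30 in Mbd3ab KO, 2.39 to 2.75 in Mbd3abc KO and 1.38 to 1.70 in Mbd3cΔN-ab KO. For Krt8 the ranges were 1.08 to 1.71, 1.52 to 2.57 and 0.90 to 2.12 in the same mutants. For Krt18 they were 0.77 to 1.64 in Mbd3ab KO, 1.40 to 1.78 in Mbd3c KO and 0.76 to 2.07 in Mbd3abc KO. Between mutants, 56 of 70 values kept side and direction, 7 lost the call, 1 gained it and 6 reversed, the last 7 all with a library left out. Eomes between Mbd3abc KO and Mbd3cΔN-ab KO lost its call with limma (0.93) and on the mutant libraries alone (0.94), and ranged from 0.81 to 1.06 with a library left out. The other leave-one-out ranges were, for Eomes, 1.22 to 1.47 (Mbd3abc KO over Mbd3ab KO) and 0.33 to 0.49 (Mbd3cΔN-ab KO over Mbd3ab KO). For Krt8 they were -0.16 to 1.21 (Mbd3abc KO over Mbd3cΔN-ab KO), 0.0692 to 1.12 (Mbd3abc KO over Mbd3ab KO) and -0.53 to 0.74 (Mbd3cΔN-ab KO over Mbd3ab KO), and for Krt18 -0.56 to 0.78 (Mbd3abc KO over Mbd3ab KO). Called list genes numbered 28 in Mbd3ab KO, 18 with a log2 change of at least 1, and 80 in Mbd3cΔN-ab KO, 43 with that change. The 1 in Mbd3c KO became 0 at an adjusted p of 0.01. Refits of Mbd3ab KO called 0 of 443 genes with edgeR, 443 at an unadjusted p under 0.05 and 239 with DESeq2. Those of Mbd3c KO called 0 of 38 with edgeR and 26 with DESeq2. No paired analysis was possible because the mutant columns carry none of the replicate numbers in the labels. The members had 61 to 169 recovered reads in a WT library.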

Other observations

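The Hippo pathway, which keeps Yap1 and the TEAD factors out of action in the inner cells of the embryo and lets them act in the outer trophectoderm cells, was looked at through 17 genes. Of these 1 was higher in Mbd3ab KO, 10 were higher and 2 lower in Mbd3abc KO, and 8 higher and 2 lower in Mbd3cΔN-ab KO, with median log2 fold changes of called members of 1.06, 1.35 and 0.99, against 0.88, 0.46 and 0.37 for all called genes. The called share was 5.88% in Mbd3ab KO, 70.6% in Mbd3abc KO and 58.8% in Mbd3cΔN-ab KO, against 3.35%, 52.1% and 41.5% of all genes tested. Mob1b, a co-activator of the Lats kinases, had 426 and 375 normalized reads in Mbd3abc KO, against 43.8 and 45.7 in WT (8.96-fold, adjusted p = 6.45e-38 by DESeq2 in the authors' deposited table). The kinase gene Lats2 had 425 and 234 in Mbd3abc KO, against 75.9 and 56.3 in WT (4.98-fold), and the kinase gene Stk3 rose 4.51-fold. Wwtr1, which encodes the Yap1 relative TAZ, rose 3.23-fold in Mbd3abc KO, while Yap1 itself was 1.19-fold lower and Tead2 2.11-fold lower.

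Within 200 kb of Eomes lie 2 other coding genes. Golga4, a Golgi golgin, rose 1.83-fold in Mbd3abc KO and 1.46-fold in Mbd3cΔN-ab KO, and the integrin Itga9 fell in Mbd3abc KO (log2 fold change -1.16 in the authors’ deposited table). Around Krt8 lie 16 and around Krt18 15 coding genes, each keratin counted for the other. In Mbd3abc KO Igfbp6, an insulin-like growth factor binding protein, rose 3.91-fold, and by the authors’ deposited table Spryd3 (log2 fold change -1.90), the integrin Itgb7 (-1.34) and Csad (-0.65), an enzyme of taurine synthesis, fell. The type II keratins Krt1, Krt4, Krt76, Krt77, Krt78 and Krt79 nearby were called in no table.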
